A study of Mus musculus with 6 samples.

Results

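The integrated stress response was read here from 6 genes, Ddit3, Trib3, Chac1, Ppp1r15a, Sesn2 and Ddit4, which were taken by gene name from a deposited table of 345 mouse genes. Each of the 6 names is found in the table once. The table holds RNA sequencing of RAW264.7 cells, an established line of mouse mononuclear macrophages, in 3 libraries of the Control group, which got no extract, and 3 libraries of the G scaffold group. The G scaffold group spent 48 h in an extract, diluted 5-fold, of a 3D printed, degradable Zn-0.8Li scaffold with Gyroid pores, an alloy with 0.8 wt% Li. Neither group carries a genetic change in the labels, and the labels do not say whether the libraries of a group came from separate cultures, so the p-values below measure only the spread between these libraries, which may be technical. The table lists genes that the study called different on these same 6 libraries. A further test on them is therefore not independent evidence of a difference.

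The integrated stress response is the shared answer of a cell to several kinds of stress. Kinases that sense unfolded proteins in the endoplasmic reticulum (ER), lack of amino acids, lack of heme or double-stranded RNA phosphorylate the translation factor eIF2, which lowers general protein synthesis and favours translation of the transcription factor ATF4. ATF4 then turns on genes for amino acid supply and redox balance and, when stress goes on, the gene of the transcription factor CHOP. In macrophages the pathway is known for its ties to cytokine output and to cell survival. Ddit3 encodes CHOP. Trib3 encodes a pseudokinase that restrains ATF4, CHOP and AKT, and Ppp1r15a encodes GADD34, which guides a phosphatase to eIF2 and so closes the loop. Chac1 encodes an enzyme that breaks down glutathione. Sesn2 encodes Sestrin 2, a leucine sensor, and Ddit4 encodes REDD1, and both proteins restrain the growth kinase complex mTORC1.

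The promoters of the 6 genes were searched for elements that stress factors are known to bind. They were taken from RefSeq on GRCm38.p6, from 250 bases before to 50 bases after the start, and all 6 genes matched 1 entry each. The core of the C/EBP-ATF response element, the element through which ATF4 and CHOP act, was searched as TGATGNAA on both strands. It was found in 2 of the 6 genes, Chac1 and Trib3, and in 3.97% of all 32851 mouse promoters of the RefSeq set, or 5.46% of the 293 promoters found for genes of the deposited table. The cyclic AMP response element TGACGTCA was found in 1 of the 6, Ppp1r15a, in 1.79% of all promoters and in 4.44% of those of the deposited table. The core of the metal response element, which the zinc sensor MTF1 binds, was searched as TGCACNC or TGCGCNC. It was found in Ddit4 and Ddit3, 2 of the 6, in 25.7% of all promoters and in 30.03% of those of the deposited table. The ER stress response element, CCAAT and CCACG with 9 bases between them, was found in none of the 6 and in 0.119% of all promoters. No letters of these 4 motifs overlapped in the 6 windows. Sesn2 had no match to any of them. A match is a run of letters and does not show binding. Bases outside this window were not searched, so a gene without a match here may still carry the element elsewhere.

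The stretches with the matches are shown for the 5 genes that carry one, 5′ to 3′ on the strand of the gene, with the matched letters in capitals. In Chac1 (chr2:119350992-119351228, plus strand) the match to the C/EBP-ATF core lay on the other strand, from 193 to 186 bases before the RefSeq start. In Trib3 (chr2:152344028-152344057, minus strand) it lay 15 to 22 bases after the RefSeq start, which is before the start of the GENCODE M21 gene at position 152344032. In Ppp1r15a (chr7:45526269-45526518, minus strand) the cyclic AMP response element lay 12 to 5 bases before the start. In Ddit4 (chr10:59951835-59952020, minus strand) the metal response element core lay 184 to 178 bases before the start, and in Ddit3 (chr10:127290543-127290773, plus strand) it lay on the other strand, 249 to 243 bases before the start. The stretches of Chac1, Ppp1r15a, Ddit4 and Ddit3 end before the outermost of the RefSeq and GENCODE starts.
Chac1: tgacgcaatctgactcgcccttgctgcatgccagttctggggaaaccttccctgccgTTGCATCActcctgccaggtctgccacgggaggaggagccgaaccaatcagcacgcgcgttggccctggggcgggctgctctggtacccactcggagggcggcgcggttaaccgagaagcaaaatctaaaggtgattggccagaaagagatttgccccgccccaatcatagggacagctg
Trib3: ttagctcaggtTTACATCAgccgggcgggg
Ppp1r15a: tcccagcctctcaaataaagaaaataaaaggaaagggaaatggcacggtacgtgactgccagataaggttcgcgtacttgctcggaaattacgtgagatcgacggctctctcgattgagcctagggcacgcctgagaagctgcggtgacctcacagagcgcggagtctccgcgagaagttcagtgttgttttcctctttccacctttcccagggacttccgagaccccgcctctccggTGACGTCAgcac
Ddit4: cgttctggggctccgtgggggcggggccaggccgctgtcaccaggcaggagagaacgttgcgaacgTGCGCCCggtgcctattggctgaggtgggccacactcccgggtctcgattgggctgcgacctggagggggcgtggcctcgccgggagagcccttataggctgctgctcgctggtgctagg
Ddit3: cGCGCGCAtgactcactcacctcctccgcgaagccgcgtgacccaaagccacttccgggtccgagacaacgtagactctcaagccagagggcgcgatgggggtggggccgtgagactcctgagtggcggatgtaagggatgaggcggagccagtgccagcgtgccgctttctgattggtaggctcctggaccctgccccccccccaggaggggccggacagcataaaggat

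Values in the table are normalized counts, that is, reads of a gene divided by 1 size factor per library. The size factors lay between 0.924 and 1.05. The libraries held 88836 to 100895 reads over the 345 listed genes in Control and 150056 to 156029 with the extract, sums that are not the sequencing depth. Behind each value of the 6 genes stood 105 to 881 reads. Of 11 macrophage markers the table lists 1, Mpeg1, so the labelled cell type could be checked on this gene alone. It had 8717 to 9896 normalized counts in Control and 4161 to 4793 with the extract. Of 9 osteoblast markers it lists 1, Col1a1, with 0 reads in every Control library and at most 9 reads in a G scaffold library. Its part in the results below was not tested. None of the markers of fibroblasts (6), lymphocytes (5), dendritic cells (4) or epithelial cells (4) is listed.

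All 6 genes were higher in the G scaffold group in the deposited scaling, by 2.07-fold (Trib3) to 4.75-fold (Ddit4) in the group means. TMM factors taken from the 345 called genes lower the log2 fold changes by construction. With them, 4 of the 6 genes (Ddit3, Ppp1r15a, Sesn2 and Trib3) were below 0 on the log2 scale. In the deposited scaling all 6 passed the test, limma on log2(normalized count + 1) with an adjusted p of at most 0.05 over the 345 genes and a log2 value of 1 or more. The same call was made for 82.6% of all listed genes. In all 6 genes every G scaffold library lay above every Control library, as in 82.9% of all listed genes. TMM is a scaling that takes the middle of the genes' ratios between libraries as unchanged. The listed genes were picked as changed, so the values below 0 do not decide the direction of these 4 genes. These are bulk libraries, so a change in the make-up of the cells and a change of RNA per cell cannot be told apart. A count of 6 of 6 is therefore near the background of a table made of called genes. On the recovered reads, edgeR and DESeq2 called 6 of 6, but each called 287 listed genes higher and 58 lower. These are the study's own counts, so the calls by edgeR and DESeq2 add no support.

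Ddit3, the gene of CHOP, stood at 139, 146 and 173 normalized counts without extract and at 426, 364 and 401 with it (replicates 1, 2 and 3 in this order, here and in the next sentences of this kind). The lowest G scaffold library lay 2.10-fold above the highest Control library. The means were 153 ± 17.9 and 397 ± 31.6 (SD, n = 3 in each group), and the log2 fold change was 1.38 (95% interval 1.02 to 1.74, adjusted p = 2.0e-04, limma).

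Trib3, the brake on ATF4 and CHOP, stood at 207, 233 and 206 normalized counts without extract and at 489.9, 459 and 389 with it. The groups did not overlap, but G scaffold replicate 3 lay apart on the low side, at 1.67-fold over the highest Control library. The means were 215 ± 15.1 and 446 ± 51.9 (SD, n = 3). The log2 fold change was 1.04 (95% interval 0.68 to 1.40, adjusted p = 6.0e-04, limma), the smallest of the 6, and it fell to 0.97, under the threshold, without G scaffold replicate 1.

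Ppp1r15a, the other feedback gene, stood at 227, 164 and 191 normalized counts without extract and at 581, 479 and 509 with it. Replicate 1 was the highest library in both groups and replicate 2 the lowest in both. The means were 194 ± 31.1 and 523 ± 52.0 (SD, n = 3), with a log2 fold change of 1.43 (95% interval 1.02 to 1.85, adjusted p = 3.1e-04, limma). Its coefficient of variation in Control, 16.0%, was the widest of the 6.

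Chac1, the glutathione-degrading enzyme, stood at 108, 114 and 124 normalized counts without extract and at 384, 319 and 352 with it. The groups were well apart, with the lowest G scaffold library 2.57-fold over the highest Control library. The means were 115 ± 8.10 and 352 ± 32.4 (SD, n = 3), and the log2 fold change was 1.60 (95% interval 1.26 to 1.94, adjusted p = 8.8e-05, limma).

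The remaining pair encodes proteins that restrain mTORC1. Sesn2 stood at 427, 387 and 385 normalized counts without extract and at 859.9, 849 and 862 with it. No Control library reached the level of a G scaffold library, and the G scaffold libraries were close together, with a coefficient of variation of 0.836%. The means were 399.9 ± 23.7 and 857 ± 7.17 (SD, n = 3), with a log2 fold change of 1.10 (95% interval 0.80 to 1.39, adjusted p = 2.2e-04, limma).

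Ddit4 stood at 134, 129 and 129.9 normalized counts without extract and at 624, 599 and 642 with it. The lowest G scaffold library lay 4.47-fold above the highest Control library, the widest gap of the 6 genes. The means were 131 ± 2.83 and 622 ± 21.6 (SD, n = 3), and the log2 fold change was 2.24 (95% interval 1.95 to 2.52, adjusted p = 1.3e-05, limma).

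**Figure D1:**
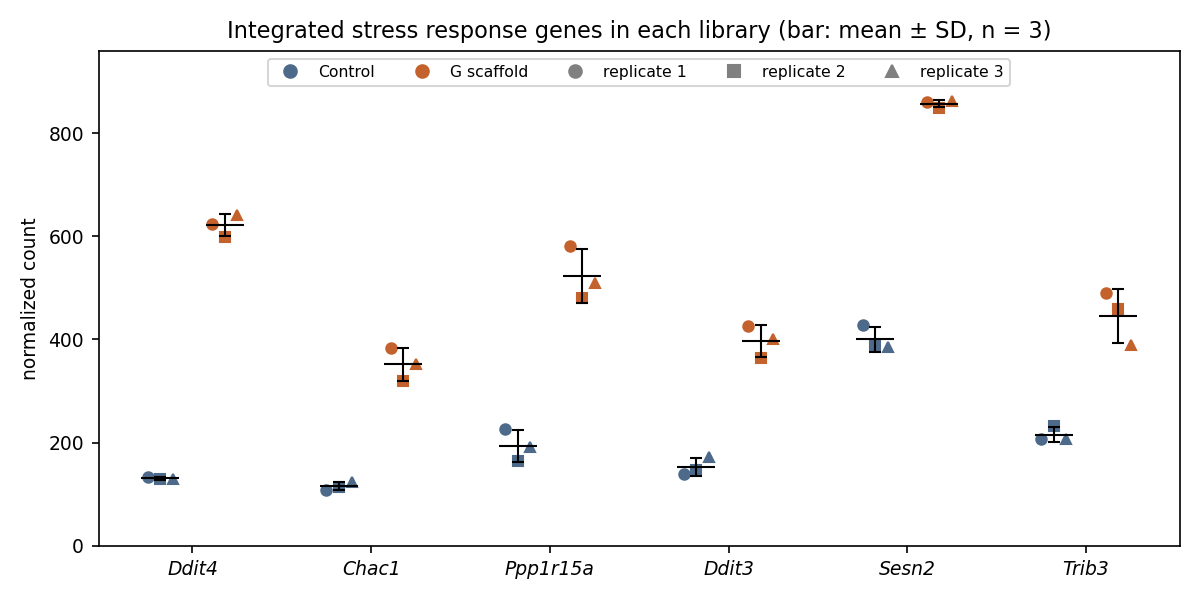
Normalized counts (linear axis from 0) of the 6 genes in the 3 Control and 3 G scaffold libraries, with the symbol showing the replicate number and the bar the mean ± SD. In the deposited scaling the groups of every gene are apart, with the widest gap for Ddit4 (4.47-fold). TMM factors from the called genes lower the log2 fold changes by construction and bring 4 of the 6 below 0.

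The median log2 fold change of the 6 was 1.40, against 1.87 over all 345 listed genes. Ddit4 lay above that median by 0.37, and the other 5 lay 0.27 (Chac1) to 0.82 (Trib3) below it. This order depends on how many faint genes are counted in. The median of the Control means was 14.7 normalized counts over all listed genes, while the 6 genes had Control means of 115 to 399.9. Among the genes with a mean of at least 100 over all 6 libraries, Ddit4 lay 0.89 above the median log2 fold change of the genes tested. Chac1 lay 0.25, Ppp1r15a 0.090 and Ddit3 0.032 above it, while Sesn2 and Trib3 lay at -0.24 and -0.30 from it. A gene can pass this filter through its level in 1 group alone, which shapes that median. With at least 10 in every library the same 4 genes lay above the median, by 0.17 (Ddit3) to 1.03 (Ddit4). Among the 68 listed genes with a mean of at least 100 normalized counts in both groups, the median log2 fold change was 1.16 over all 68, below Ddit4, Chac1, Ppp1r15a and Ddit3, and 1.38 over the 49 that were higher in the G scaffold group.

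**Figure D2:**
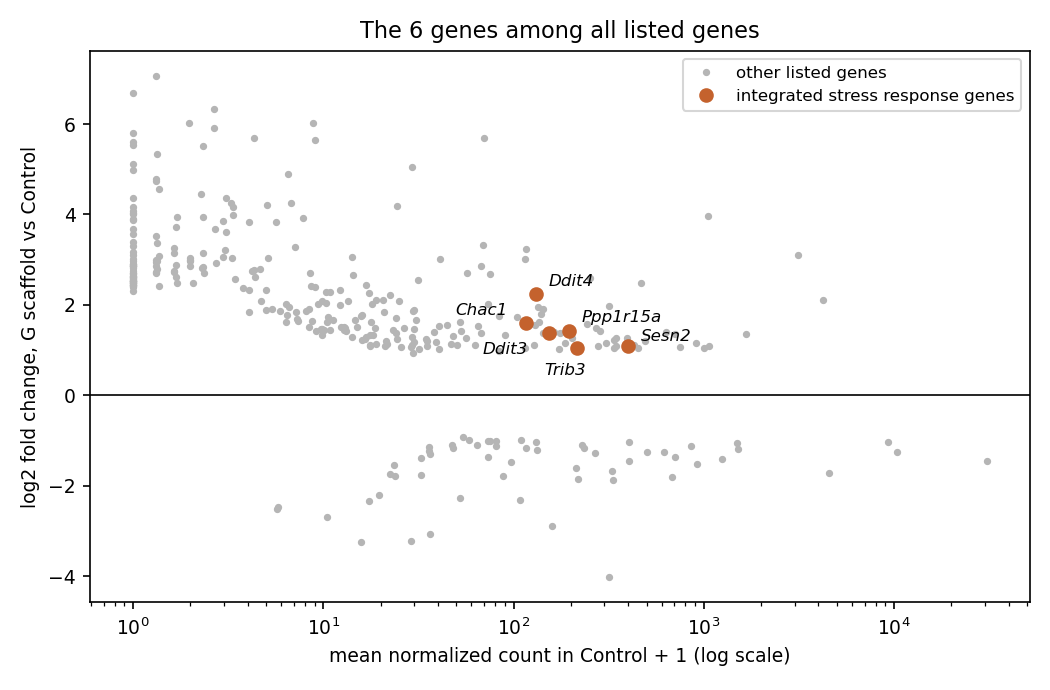
Log2 fold change of every listed gene against its mean normalized count in Control plus 1 (log axis), in the deposited scaling, with the 6 genes in orange. The 6 lie between 1.04 and 2.24 at Control means of 115 to 399.9 normalized counts. With TMM factors from the called genes, which lower the log2 fold changes by construction, 4 of them are below 0.

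How far the rise can be told from the scaling was looked at with 2 other sets of factors, both computed over the listed genes, since other genes are not analysed here. Column totals moved the table's median log2 fold change by -0.60 and TMM factors by -1.39. Calls over the whole table went from 285 higher and 55 lower with the deposited factors to 191 and 58 with column totals and to 135 and 58 with TMM factors. With column totals, all 6 genes stayed above 0, from 0.40 (Trib3) to 1.59 (Ddit4), and 1 of 6 was called higher (Ddit4), against 55.4% of all listed genes. With TMM factors, 0 of 6 were called higher, against 39.1% of all listed genes. In that scaling Ddit4 was at 0.76 (adjusted p = 0.0015, limma) and Chac1 at 0.12, while Ppp1r15a, Ddit3, Sesn2 and Trib3 were at -0.046, -0.10, -0.38 and -0.44. The adjusted p was 0.037 for Sesn2 and 0.042 for Trib3 on this lower side (limma). These values do not show a fall, since the factors move all listed genes to that side. A change of factors moves every gene of a library nearly alike, so the distances of the 6 genes from the table's median are almost fixed by construction.

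**Figure D3:**
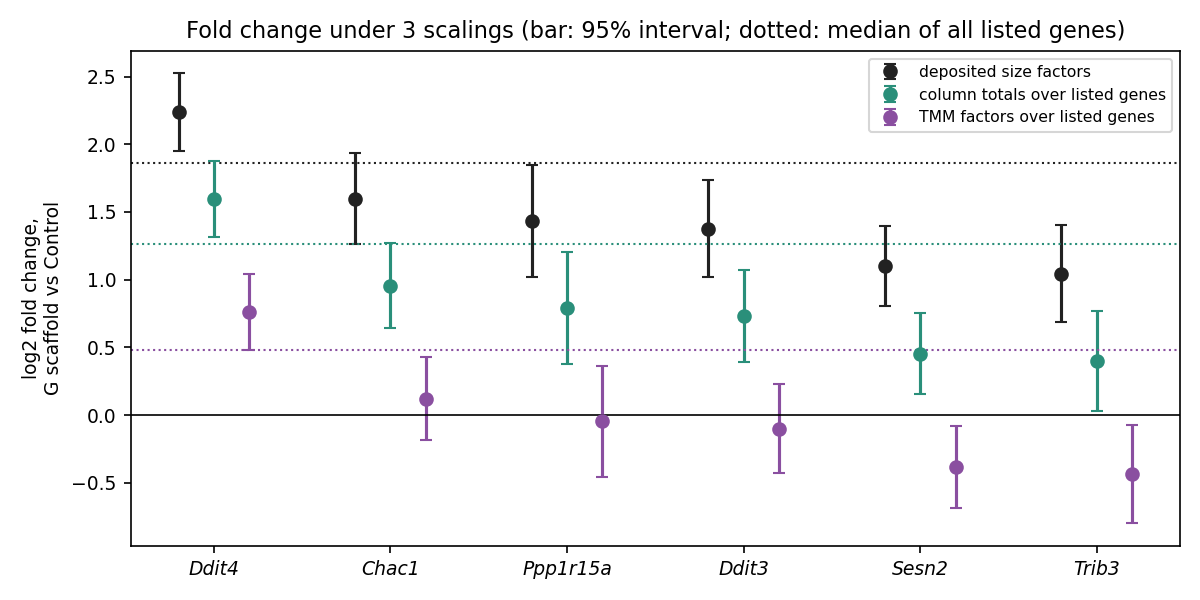
Log2 fold change, G scaffold against Control, of the 6 genes with the deposited size factors, with column totals and with TMM factors, the last 2 taken from the table's own genes. Bars are 95% intervals from limma and dotted lines the median of the table in each scaling (1.87, 1.27 and 0.48). The distance of a gene from the dotted line is nearly fixed by construction. Factors from a table of mostly higher genes also lower the log2 fold changes by construction. Ppp1r15a, Ddit3, Sesn2 and Trib3 are below 0 with TMM factors.

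The ratio of 2 genes within a library does not depend on that library's size factor, apart from the small effect of the added 1. All 15 pairs of the 6 genes were therefore compared between the groups, with log2(normalized count + 1) of one gene minus that of the other, so that a positive change means a larger rise of the gene named first. In each pair the gene with the larger rise is named first. With 3 libraries against 3, the two-sided exact permutation test cannot give a p below 0.10, and after Benjamini-Hochberg adjustment over the 15 pairs the smallest value was 0.167. In 9 of the 15 pairs the libraries of the groups did not overlap (exact permutation p = 0.10 each). The pairs are built from the same 6 genes, so these are not 9 separate results. The share without overlap among pairs of other listed genes was not computed, so the count cannot be called unusual.

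The ratios of Ddit4 to the other 5 genes were all higher with the extract, with no overlap between the groups in any of these pairs. The ratio of Ddit4 to Trib3 changed by 1.20 on the log2 scale (95% interval 0.81 to 1.58), from -0.71 in Control to 0.48 in the G scaffold group. Against Sesn2, the other mTORC1 restrainer, it changed by 1.14 (95% interval 1.03 to 1.25). The changes against Ddit3, Ppp1r15a and Chac1 were 0.86, 0.80 and 0.64. The other 4 pairs without overlap were Chac1 over Trib3 (0.56), Chac1 over Sesn2 (0.50), Ppp1r15a over Sesn2 (0.33) and Chac1 over Ddit3 (0.22). Of these 9 pairs, the 95% interval included 0 for Ppp1r15a over Sesn2 alone (-0.0050 to 0.67). These intervals rest only on the spread seen between the libraries, with no floor at counting error. They can be too narrow where that spread was small, as for Ddit4 over Sesn2 and Chac1 over Ddit3 (standard errors 0.039 and 0.040). An interval without 0 is therefore weak evidence of a changed ratio in such pairs.

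In the remaining 6 pairs the groups overlapped. The smallest changes were those between the genes Ppp1r15a and Ddit3 and between Sesn2 and Trib3. Ppp1r15a over Ddit3 changed by 0.057 with overlapping groups (95% interval -0.45 to 0.57), and Sesn2 over Trib3 by 0.057 (95% interval -0.32 to 0.43). Intervals of this width do not show that the genes of a pair rose alike. Both took the other sign when single libraries were left out, Ppp1r15a over Ddit3 without Control replicate 2 or 3 and Sesn2 over Trib3 without Control replicate 2 or G scaffold replicate 3. Chac1 over Ppp1r15a changed by 0.17 (95% interval -0.29 to 0.62). It was 0.0039 without Control replicate 1 and 0.27 without Control replicate 2. The changes of Ppp1r15a over Trib3, Ddit3 over Trib3 and Ddit3 over Sesn2 were 0.39, 0.33 and 0.28 (exact permutation p = 0.20 each), and each interval included 0. The first was 0.22 without Control replicate 2 and the last 0.16 without Control replicate 1.

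Of the 15 pairs, Chac1 and Ddit3 had the narrowest span of their ratio inside the G scaffold group. Their log2 ratio was between -0.19 and -0.15 there, a span of 0.037, and between -0.47 and -0.36 in Control. In Control the narrowest span was that of Ddit4 over Sesn2, 0.10, against 0.12 for Chac1 over Ddit3. A smallest span picked from all pairs and not set against counting error does not show that Chac1 and Ddit3 vary together. The widest spans in the G scaffold group were 0.38, in the pairs of Trib3 with Chac1 and with Ddit3.

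**Figure D4:**
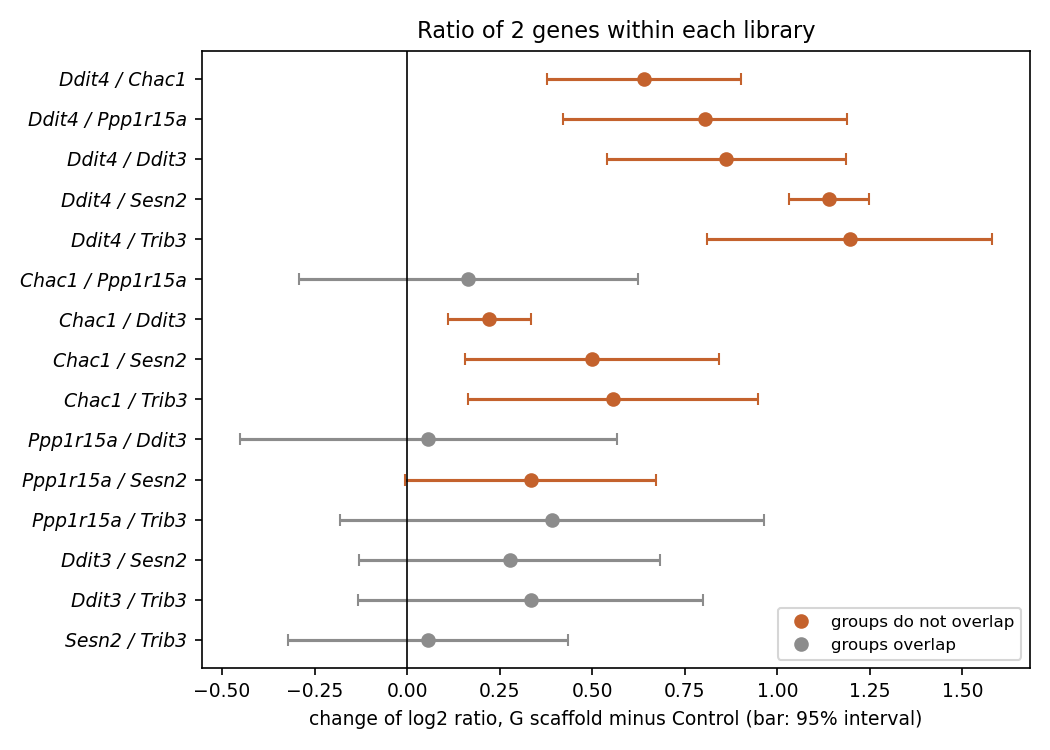
Change of the log2 ratio of 2 genes within a library, G scaffold minus Control, for all 15 pairs, with 95% intervals from the pooled spread of the 6 libraries. Orange pairs (9) have no overlap between the groups and grey pairs (6) do, and the 5 pairs with Ddit4 lie between 0.64 and 1.20. The intervals have no floor at counting error. The pairs share genes and are not separate results.

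The make-up of the 6 genes together expresses the same counts in another form and is no further support. Their summed normalized counts were 1173 to 1242 in the Control libraries and 3070 to 3365 in the G scaffold libraries. Ddit4 took 10.8% ± 0.123 of this sum in Control and 19.5% ± 0.903 with the extract (SD, n = 3 in each). The share of Sesn2 was 33.1% ± 1.28 in Control and 26.8% ± 1.13 with the extract, and that of Trib3 was 17.8% ± 1.74 and 13.9% ± 1.43. Neither overlapped between the groups. The share of Chac1, 9.56% ± 0.782 in Control and 10.99% ± 0.527 with the extract, did not overlap either. The shares of Ddit3 (12.7% ± 1.56 and 12.4% ± 0.489) and Ppp1r15a (16.0% ± 2.12 and 16.3% ± 0.838) did overlap. Shares add up to the whole, so a larger share of 1 gene lowers those of the rest.

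Levels were compared between genes per 1000 bases of the gene length in the table. In Control the order from high to low was Sesn2 (115 ± 6.83 normalized counts per kb), Trib3 (100.4 ± 7.04), Ddit3 (89.5 ± 10.5), Ppp1r15a (79.1 ± 12.7), Ddit4 (78.1 ± 1.68) and Chac1 (70.5 ± 4.95; SD, n = 3 each). Sesn2 and Trib3 did not overlap, nor did Ddit4 and Chac1, and the neighbours between Trib3 and Ddit4 did. In the G scaffold group Ddit4 led with 371 ± 12.9 normalized counts per kb, apart from Sesn2 with 247 ± 2.06. From Sesn2 down through Ddit3 (233 ± 18.5), Chac1 (215 ± 19.8), Ppp1r15a (213 ± 21.2) and Trib3 (208 ± 24.2), each gene overlapped the next. Ddit4 thus moved from the last but one place to the top of the order, which rests on the same counts as its fold change.

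Single libraries leaned the same way in several of the genes. G scaffold replicate 2 was the lowest of its group in 5 of the 6 genes, all but Trib3, where replicate 3 was. Its sum of normalized counts over all listed genes was the lowest too, 144770 against 152281 and 152752 in replicates 1 and 3. The share of listed genes that were lowest in replicate 2 was not computed, so the lean is not shown to be particular to the 6. G scaffold replicate 1 was the highest in 4 (Ddit3, Trib3, Chac1 and Ppp1r15a) and replicate 3 in Sesn2 and Ddit4. In Control the order was not shared, with replicate 3 highest for Ddit3 and Chac1, replicate 1 for Ppp1r15a, Sesn2 and Ddit4, and replicate 2 for Trib3. The spread was set against counting error by the dispersion index of the reads, which is 1 on average where only counting error acts. In the G scaffold group it ran from 0.062 for Sesn2 to 6.12 for Trib3, with 5.23 for Ppp1r15a. In Control it ran from 0.060 for Ddit4 to 4.82 for Ppp1r15a. Its median over the 68 well-covered genes was 2.71 in Control and 4.35 with the extract. An index from 3 libraries is imprecise.

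For each gene, the 2 named genes with the most similar profile over the 6 libraries were listed, by the root mean square difference of log2 values centred on each gene's mean. For Ddit4 these were Spp1 (0.085) and Egr1 (0.13), whose log2 fold changes were 2.11 and 2.48. For Chac1 they were Dusp2 (0.076) and Ier3 (0.089), and for Ppp1r15a they were Sccpdh (0.085) and Hmox1 (0.11). For Ddit3 they were Rnd1 (0.088) and Padi2 (0.095). For Sesn2 they were Dgka (0.070) and Thbs3 (0.072), and for Trib3 Vegfa (0.11) and Hist1h1c (0.12). None of the 6 had another of the 6 among its 2 nearest. The measure rests largely on the size of the change between the groups.

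The wider pathway was read from a list of 68 integrated stress response genes. The table lists 6 of them, which are the 6 described above, and all 6 were called higher in the deposited scaling. Listed were 1 of 8 transcription factors (Ddit3) and 5 of 15 feedback and stress effectors. Of the eIF2 kinases and eIF2 machinery (10 genes), the amino acid synthesis and one-carbon enzymes (14), the amino acid transporters (9) and the aminoacyl-tRNA synthetases and their exporter (12), 0 were listed by name. Neither Atf4 itself nor the amino acid targets Asns, Psat1 and Slc7a11 are therefore analysed here, and 33 of the 345 genes carry no name. A gene not listed by name was not called different under that name by the study. Absence from the table says nothing of a gene's level.

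Neighbouring stress programmes were read the same way. Of 19 genes for ER chaperones and the other arms of the unfolded protein response the table lists 1, Dnajb9, which encodes an ER co-chaperone. It had 138.5 ± 16.6 normalized counts in Control and 481 ± 49.6 with the extract (SD, n = 3), with a log2 fold change of 1.79 (0.31 with TMM factors). Of 19 p53 targets it lists 3, Sesn2, Ddit4 and Plk2, and Plk2, a polo-like kinase, rose from 23.5 ± 1.17 to 448 ± 13.6 (log2 fold change 4.20, adjusted p = 1.5e-06, limma). Of 20 hypoxia targets it lists 3, Ddit4, Adm and Vegfa. Vegfa, the gene of a vessel growth factor, was at 1.04 in the deposited scaling and at -0.44 with TMM factors. Adm, the gene of adrenomedullin, rose from 56.2 ± 14.0 to 365 ± 42.4 (log2 fold change 2.70, adjusted p = 8.1e-05, limma). Sesn2 and Ddit4 thus belong to more than 1 list. Of 5 zinc response genes the table lists 3, the metallothionein genes Mt1 and Mt2 and the zinc exporter gene Slc30a1, with log2 fold changes of 3.10, 3.97 and 1.10. Slc30a1 was at -0.38 with TMM factors, as low as Sesn2 there. With the same factors Plk2 was at 2.74, Adm at 1.23, Mt1 at 1.62 and Mt2 at 2.49. All listed genes of these lists were called higher, as were 82.6% of the table.

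Positions in the table follow another annotation than GRCm38. The 6 genes carry identifiers of SPRET/EiJ, a strain of Mus spretus, and lie there on chromosome 10 (Ddit3, MGP_SPRETEiJ_G0016716, from 128455853 to 128461251, plus strand, and Ddit4, MGP_SPRETEiJ_G0016160, from 58043025 to 58045112, minus strand), chromosome 2 (Trib3, MGP_SPRETEiJ_G0025372, from 153729117 to 153735647, minus strand, and Chac1, MGP_SPRETEiJ_G0025059, from 119723244 to 119726382, plus strand), chromosome 4 (Sesn2, MGP_SPRETEiJ_G0027548, from 128947864 to 128967536, minus strand) and chromosome 7 (Ppp1r15a, MGP_SPRETEiJ_G0030823, from 33380217 to 33383094, minus strand). All 6 are protein-coding. In GENCODE M21 on GRCm38, Ddit3 shares 68 bases at its end with Mars and 15 bases with Gm4189, both on the opposite strand, and 2925 bases with a second gene model of the same name on its own strand, while Ppp1r15a shares 717 bases with Tulp2 on the opposite strand. Sesn2 shares 6089 bases with Gm12981 on its own strand. All these overlaps are between whole gene spans, introns included. Whether the counting used strand is not given in the sources used here. Strand would not separate Sesn2 from Gm12981, or the 2 models named Ddit3, in any case. Reads from such shared stretches therefore cannot be assigned, and how many reads fall there was not computed. Trib3, Chac1 and Ddit4 overlap no other gene in that annotation.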

How the data were processed

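RNA of 6 RAW264.7 libraries, 3 Control and 3 G scaffold, was prepared with Trizol and a SMARTER mRNA-Seq kit per the labels. Groups and replicate numbers came from the sample titles. The deposited signal columns are reads per gene after the authors' division by a size factor of each library. The authors' log2 fold changes and p-values, also deposited, and the authors' group means were not used. Per the study's methods the RNA-seq data were analysed on a free web platform, and the study gives a two-sided test without adjustment beside limits of 0.05 on the adjusted p and 1 on the |log2 fold change|. Aligner, counter and the program of the test are not given in the sources used here. The submitters' processing notes name GRCm38 and mm10, whereas 329 of the 345 gene identifiers are those of SPRET/EiJ, and 4 of 307 named genes overlap the GENCODE M21 gene of the same name. The lowest value above 0 in a library was taken as the worth of 1 read, and in this unit 100% of the values were whole numbers within 0.001 reads.

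limma 3.58.1 (R 4.3.3) was fitted to log2(value + 1) over all 345 genes with a single term for the group, and p-values were adjusted after Benjamini and Hochberg. A fold change on this scale understates the change of low genes. Genes were called where the adjusted p was 0.05 or less and the log2 fold change 1 or more in either direction. edgeR 4.0.16 and DESeq2 1.42.0 on the recovered reads, other scalings, pseudocounts, filters, a replicate block and each library left out were run as alternatives. The fits were tested on simulated data first. Pairs of genes were compared with a two-sided exact permutation test (scipy 1.17.1). Genes named besides the 6 are the listed members of the gene lists and the 2 nearest profiles of each gene. Members and lists were chosen with earlier results of these data known. Replicate libraries of a group differed by more than counting error (chi-square over degrees of freedom 2.79 to 7.90), so none was taken as a duplicate.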

Additional observations from a re-analysis of the deposited data

How the results depend on the processing

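In the deposited scaling the 6 genes kept their direction under every alternative run, and the log2 fold changes of Ddit4, Chac1, Ppp1r15a, Ddit3 and Sesn2 stayed past the threshold, with edgeR and DESeq2 on recovered reads, pseudocounts of 0.1 and 10, both filters and the replicate block included. Leaving out 1 library gave 2.21 to 2.26 for Ddit4, 1.53 to 1.67 for Chac1, 1.32 to 1.55 for Ppp1r15a, 1.31 to 1.47 for Ddit3, 1.07 to 1.15 for Sesn2 and 0.97 to 1.14 for Trib3, so that 5 to 6 of the 6 were called. Trib3 was at 0.97 without G scaffold replicate 1.

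TMM factors over the listed genes gave Ddit3 -0.10, Trib3 -0.44, Sesn2 -0.38, Ppp1r15a -0.046, Chac1 0.12 and Ddit4 0.76, with 0 of 6 called. Column totals gave Ddit3 0.73, Trib3 0.40, Chac1 0.96, Sesn2 0.45 and Ppp1r15a 0.79, with 1 of 6 called. TMM takes most genes as unchanged, which a table of called genes is not by construction.

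Of the listed genes, 285 were called higher and 55 lower, against 287 and 58 by edgeR and by DESeq2 on the recovered reads. Scalings and filters gave 135 higher with TMM factors, 115 higher with at least 10 in every library, and 68 higher and 23 lower with a mean of at least 100, filters that test fewer genes. Leaving out 1 library gave 276 to 283 higher and 50 to 53 lower. Among the ratios, leaving out 1 library gave -0.040 to 0.24 for Ppp1r15a over Ddit3, with -0.027 and -0.040 when Control replicates 2 and 3 were dropped, and -0.044 to 0.13 for Sesn2 over Trib3, with -0.023 when Control replicate 2 and -0.044 when G scaffold replicate 3 was dropped. The replicate numbers did not pair the libraries (correlations of same-numbered deviations 0.0047, -0.035 and -0.071), and the replicate block called 284 genes higher and 6 of the 6. Depth cannot be given from a table of called genes, and an unlisted gene has no value here.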
